A study of Mus musculus with 8 samples.

Results

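The motor protein of heart muscle was followed through 10 genes: the heavy chains Myh6, Myh7, Myh7b and Myh3, the light chains Myl1, Myl2, Myl3, Myl4 and Myl7, and Mybpc3, which encodes the cardiac myosin binding protein C. They were taken by symbol from a table of 20701 symbols (31507 transcripts). For a symbol with more than 1 transcript, the one with the highest mean count was used. Each library came from 1 E10.5 mouse embryo of strain C57BL/6, from which the outflow tract was dissected together with the right ventricle (OFT/RV), with 4 embryos labelled wild type (CTRL) and 4 labelled Isl1 hypomorph (Isl1_hypo). In the hypomorph the alleles of Isl1, a LIM-homeodomain transcription factor gene of second heart field progenitors, are expressed at a reduced level in the whole embryo, so that tissues other than the heart carry the change too. The study asked how Isl1 shapes the genes of the developing heart, among them those of the contractile apparatus.

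A muscle myosin molecule is a pair of heavy chains, each with a motor head that splits ATP and pulls on actin, and each head carries an essential and a regulatory light chain on its neck. The mouse heart uses Myh7 (beta, slower) and Myh6 (alpha, faster), and the balance moves toward Myh7 in the fetal ventricle and toward Myh6 after birth. The regulatory chain Myl2 and the essential chain Myl3 belong to the ventricle, and Myl7 and Myl4 to the atrium, although the early heart tube uses chains of both chambers. Myl1 is the essential chain of fast skeletal muscle, Myh3 is the embryonic skeletal heavy chain, and Myh7b is an ancient relative of Myh7. Mybpc3 binds the thick filament and sets how readily the heads leave it.

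The heavy chain genes also carry microRNAs. The mature forms are shown because the levels of their host genes are described here, and capitals mark the seed, bases 2 to 8 from the 5′ end (RefSeq sequences, build GRCm38.p6).
mmu-miR-208a-3p: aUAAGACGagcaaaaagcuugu
mmu-miR-208b-3p: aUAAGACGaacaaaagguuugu
mmu-miR-499-5p: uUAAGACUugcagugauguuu
The first lies within Myh6 (chr14:54949072-54949093, minus strand), the next within Myh7 (chr14:54975710-54975731, minus strand) and the last within Myh7b (chr2:155622893-155622913, plus strand). miR-208a and miR-208b had the same seed and shared 19 of 22 bases, differing by G10A, A16G and C18U, counted from the 5′ end with the base of miR-208a first. The seed of miR-499-5p shared 6 of 7 bases with them, the difference being G8U. The microRNAs themselves were not measured in these polyadenylated RNA libraries.

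Isl1 was examined first and separated the groups. CTRL replicates 1 to 4 held 29.6, 61.5, 46.2 and 51.3 CPM (counts per 1000000 of the scaled library total), and Isl1_hypo replicates 1 to 4 held 12.7, 6.86, 7.71 and 11.4 CPM. Its log2 fold change was −2.29 (SE 0.256, adjusted p = 0.0077, edgeR quasi-likelihood test with Benjamini-Hochberg adjustment). The libraries held 29748458 to 46678973 counts in CTRL and 18422245 to 33050298 in Isl1_hypo. Isl1_hypo replicate 3 stood apart from the other libraries on the first principal component, at 72 against −17.7 to 3.97, and had the steepest trends on GC content (−0.29 log2 units per 10 percentage points, against −0.0344 to 0.106 elsewhere) and the lowest on transcript length (−0.108 per doubling, where CTRL replicate 1 had the highest, at 0.121). Where leaving it out changed a call or strongly moved a value, the value without it is given too.

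The myosin genes took 2.6% to 3.05% of the counts of a CTRL library, and 2.66%, 2.8%, 2.21% and 2.92% in Isl1_hypo replicates 1 to 4. Markers of cardiac muscle were abundant in both groups. The 7 myocardium markers Actc1, Tnnt2, Tnni1, Tnnc1, Actn2, Tpm1 and Nkx2-5 summed to 29003 to 35476 CPM in CTRL and 32877 to 39123 CPM in Isl1_hypo. Actc1 made up most of these sums, at a mean of 21021 of 33064 CPM in CTRL and 23654 of 34885 CPM in Isl1_hypo. Of the 7 markers, 3 were higher and 4 lower in Isl1_hypo, with a median log2 fold change of −0.15. None of the 7 reached an unadjusted p of 0.05, and without Isl1_hypo replicate 3 Nkx2-5 did (log2 fold change 0.29, unadjusted p = 0.00746, edgeR). Fewer muscle cells and less RNA per cell cannot be told apart in such tissue samples.

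Of the 10 genes, all were measured well enough to be tested. With an adjusted p under 0.05 there were 0, where 0.269% of all 13769 tested genes passed. DESeq2 called 2 (Myh7 and Myl1), where it called 2.32% of the 13749 genes to which it gave an adjusted p. At an unadjusted p under 0.05 there were 3, Myh6, Myh7 and Myl1, where 11.9% of all genes reached this level. Myh7 and Myl1 were also the 2 genes whose groups did not overlap in CPM, against 8.5% of all genes. The median log2 fold change over the 10 was −0.11, with 6 lower and 4 higher in Isl1_hypo, and over all tested genes it was 0.0057. Both genes with a negative difference at the unadjusted level were heavy chains, and the one with a positive difference was the skeletal light chain.

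**Figure D1:**
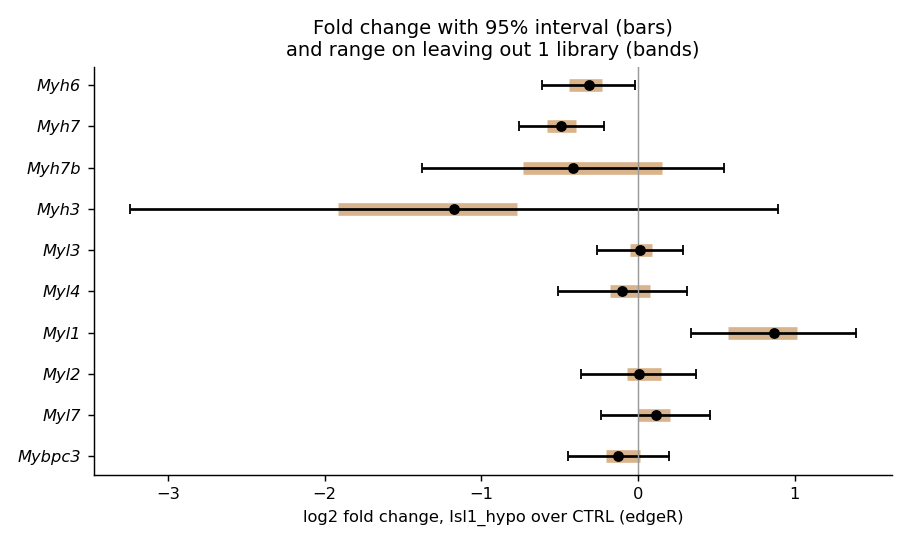
Log2 fold change of each gene, Isl1_hypo over CTRL, on the horizontal axis: points are edgeR estimates, thin bars their 95% intervals, and shaded bands the range when each library is left out in turn. Only the intervals of Myh6 and Myh7 (below 0) and Myl1 (above 0) keep off 0.

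Myh7, the slow heavy chain, was the most abundant heavy chain and the one with the clearest difference. Its gene spans 55589525 to 55613471 on chromosome 14 of mm9 (minus strand). CTRL replicates 1 to 4 held 4009.7, 4194, 5175 and 3947 CPM of it, and Isl1_hypo replicates 1 to 4 held 3033, 3617, 2787 and 2891 CPM. Every Isl1_hypo library was below every CTRL library, the gap running from 3617 to 3947 CPM, and replicate 2 was the nearest to CTRL. The mean was 4331.5 ± 572 CPM in CTRL and 3082 ± 371 CPM in Isl1_hypo (SD, n = 4), which is 71.2% of CTRL. The log2 fold change was −0.49 (SE 0.124, 95% interval −0.76 to −0.22, adjusted p = 0.165 in edgeR, 0.0121 in DESeq2). Its unadjusted p stayed under 0.05 in 20 of 21 alternatives, and the log2 fold change ran from −0.58 to −0.37. It was −0.45 without Isl1_hypo replicate 3, and −0.41 and −0.40 after the length and GC trends of each library were removed.

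Myh6, the fast heavy chain, sits next to Myh7 (minus strand of chromosome 14, mm9, 55560758 to 55585764), with 3760 bases between the annotated genes. CTRL replicates 1 to 4 held 1455, 1309, 1560 and 1295 CPM, against 1169, 1407, 926 and 1019 CPM in Isl1_hypo replicates 1 to 4. Replicate 2 of Isl1_hypo fell within the CTRL range, so the groups overlapped, while the other 3 lay below it. The mean was 1405 ± 126 CPM in CTRL and 1130.2 ± 209.9 CPM in Isl1_hypo (SD, n = 4), and the fitted log2 difference was −0.31 with an SE of 0.135 (adjusted p = 0.391, edgeR). The unadjusted p of 0.0396 was the weakest of the 3, and it held under 0.05 in 10 of 21 alternatives. Over the alternatives the log2 fold change ran from −0.44, without Isl1_hypo replicate 2, to −0.06, with the blood level as a covariate. The first of these had an unadjusted p of 0.00537 (edgeR). Without Isl1_hypo replicate 3 the log2 fold change was −0.23 with an unadjusted p of 0.0818. With scaling to the myocardium markers it was −0.27 with an unadjusted p of 0.068 (edgeR).

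The coding transcripts of Myh6 and Myh7 are close copies, which bears on how far their reads can be told apart. Of the 50-base windows of the Myh6 transcript, 22.8% occurred without mismatch in Myh7 (mm9 annotation), and of the 100-base windows 11.5% did. The read length is not given in the sources used here, and the share of reads placed on the wrong gene was not tested. No 50-base window was shared between Myl7 and Myl2, between Myl4 and Myl3, or between Myh7 and either Myh3 or Myh7b.

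The 250 bases before the start sites of Myh6 and Myh7, like those of the other genes, were searched for motifs. Those of Myh6 and Myh7 are shown (RefSeq start sites, GRCm38.p6, minus strand). The table lists 2 start sites for Myh7, and the window of the upstream one is shown. Capitals mark the MCAT motif CATTCC, read here on the opposite strand.
Myh6, chr14:54966608-54966857: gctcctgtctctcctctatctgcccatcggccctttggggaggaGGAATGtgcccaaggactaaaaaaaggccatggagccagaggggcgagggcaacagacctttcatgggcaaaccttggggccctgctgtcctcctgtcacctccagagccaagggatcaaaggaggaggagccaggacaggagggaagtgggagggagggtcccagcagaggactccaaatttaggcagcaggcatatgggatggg
Myh7, chr14:54994627-54994876: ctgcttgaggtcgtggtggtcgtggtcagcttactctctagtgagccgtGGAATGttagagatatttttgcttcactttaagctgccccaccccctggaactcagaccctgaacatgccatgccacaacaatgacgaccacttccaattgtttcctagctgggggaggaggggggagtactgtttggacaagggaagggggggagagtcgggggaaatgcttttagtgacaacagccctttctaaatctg
MCAT is bound by TEAD factors in muscle genes. The TEAD gene of the lists, Tead1, had a log2 fold change of 0.20 (adjusted p = 0.587, edgeR), and its part was not tested. The match began 206 bases before the start site in Myh6 and 201 bases before the upstream start site of Myh7, and the window of the downstream start site of Myh7 held none. The 10 genes had 12 windows, with 2 each for Myh7 and Myl2. CATTCC was found in 5 of these 12 (Myh6, 1 of the 2 of Myh7, Myl1, Myl3 and Myl7) and in 12.6% of the 32851 windows of 250 bases in the table. A GATAA motif was found in 5 of the 12 (Myh7b, 1 of the 2 of Myl2, Myl3, Myl7 and Mybpc3) and in 22.6% of all windows. The homeodomain core TAAT, the kind of letters Isl1 binds, was found in 3 (Myl1, 1 of the 2 of Myl2, and Myl4) and in 54.9% of all windows. TATAAA was found in 3 (Myh3, Myl1 and 1 of the 2 of Myl2) and in 12.4% of all windows, and an E-box CANNTG in 11, all but that of Myl4, and in 66.2%. The CArG box was matched in Myl3 and Myl7 (1.47% of windows), and the MEF2 consensus in Mybpc3 only among the 10 (2.92%). Matches were sought on both strands, several of these motifs may overlap, and a match is a run of letters and not a measured binding site.

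The other heavy chains were near the limit of measurement. Myh7b held 284, 105, 144 and 142 counts in CTRL and 43, 145, 81 and 96 counts in Isl1_hypo. At 9.09, 2.58, 3.58 and 3.04 CPM against 2.34, 5.43, 2.56 and 3.32 CPM the groups overlapped, CTRL replicate 1 was above every Isl1_hypo library, and Isl1_hypo replicates 1 and 3 lay just below the CTRL range. Its log2 fold change was −0.41 (SE 0.441), and 0.15 without that library. Myh3 held 4, 170, 248 and 217 counts in CTRL and 70, 42, 3 and 39 in Isl1_hypo, or 0.128, 4.18, 6.16 and 4.64 CPM against 3.8, 1.57, 0.0948 and 1.35 CPM. One library in each group, CTRL replicate 1 and Isl1_hypo replicate 3, was almost without it, and the other libraries of CTRL were all above those of Isl1_hypo. Myh3 had a log2 fold change of −1.17 with a 95% interval of −3.24 to 0.89 and an adjusted p of 0.648 (edgeR). It was −0.77 without Isl1_hypo replicate 3 and −1.92 without Isl1_hypo replicate 1.

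Among the light chains, the ventricular regulatory chain Myl2 (chromosome 5, plus strand, mm9, 122550960 to 122563481) was at 5464, 6000.3, 6587 and 7766 CPM in CTRL and at 7136, 6916, 4407 and 7437 CPM in Isl1_hypo replicates 1 to 4. Isl1_hypo replicate 3 was the lowest of the 8, and the other 3 lay within the CTRL range. The mean was 6454.5 ± 987 against 6474 ± 1394 CPM (SD, n = 4), and the log2 fold change was 0.004 with a 95% interval of −0.36 to 0.37. Without Isl1_hypo replicate 3 it was 0.15. The sign of a value this near 0 changed with the setting, and the range over the alternatives was −0.13 to 0.15. Its mean was 100.3% of CTRL.

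Myl7, the atrial regulatory chain (chromosome 11, minus strand, mm9, 5796640 to 5798785), was at 4913, 6296, 6733 and 5847.5 CPM in CTRL and at 5109, 5386, 7896 and 7320.5 CPM in Isl1_hypo. The groups overlapped, with Isl1_hypo replicates 3 and 4 above every CTRL library and replicates 1 and 2 in the lower part of the CTRL range. The log2 fold change was 0.11 (95% interval −0.23 to 0.46, adjusted p = 0.812, edgeR). Without Isl1_hypo replicate 3 it was −0.0022. Myl2 lay above and Myl7 below the CTRL mean in Isl1_hypo replicates 1 and 2, the reverse held in replicate 3, and both lay above it in replicate 4.

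Of the essential chains, ventricular Myl3 (chromosome 9, plus strand, mm9, 110666150 to 110672308) was at 3553, 3799, 4184 and 4681 CPM in CTRL and at 4023, 4387, 3383 and 4557 CPM in Isl1_hypo, so that 3 of the 4 Isl1_hypo libraries lay inside the CTRL range. Its log2 fold change was 0.01 with a 95% interval of −0.26 to 0.29. Atrial Myl4 (chromosome 11, plus strand, mm9, 104411977 to 104457067) was at 3440.3, 4086.5, 4404 and 4605 CPM in CTRL and at 4262, 4402, 2338 and 4441 CPM in Isl1_hypo. Replicate 3 was at 2338 CPM, while the other 3 kept to the CTRL range. The log2 fold change of Myl4 was −0.10 (95% interval −0.51 to 0.31), and 0.08 without Isl1_hypo replicate 3.

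Mybpc3, the thick filament regulator (chromosome 2, plus strand, mm9, 90958301 to 90976673), was measured at 1803, 1816, 2018 and 1726 CPM in CTRL and at 1829.5, 1935, 1169 and 1820.4 CPM in Isl1_hypo replicates 1 to 4. Replicates 1, 2 and 4 lay within the CTRL range and replicate 3 far below it. The log2 fold change was −0.12 (95% interval −0.45 to 0.20, adjusted p = 0.772, edgeR), and 0.02 without replicate 3.

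**Figure D2:**
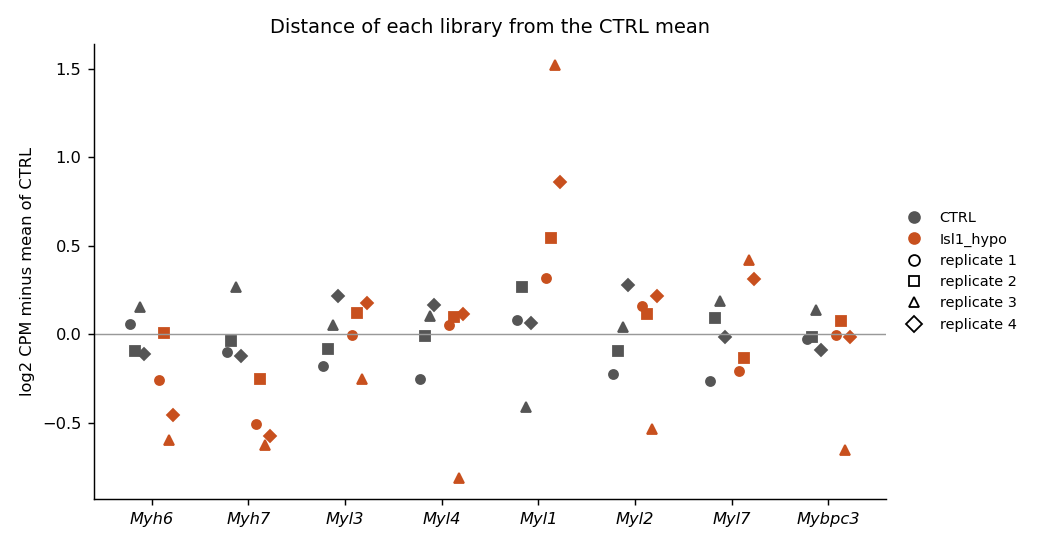
Distance of each library from the CTRL mean in log2 CPM (vertical axis) for the 8 abundant genes: grey points are CTRL, orange points Isl1_hypo, and the shape gives the replicate. Isl1_hypo replicate 3 (triangles) stood at −0.54 for Myl2, −0.81 for Myl4 and −0.65 for Mybpc3 but at 0.42 for Myl7 and 1.52 for Myl1, and all 4 orange points of Myh7 lie below the grey ones.

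Myl1, the skeletal essential chain, was the one gene of the set that was higher in Isl1_hypo at an unadjusted p under 0.05. Its gene spans 66970869 to 66991978 on chromosome 1 of mm9 (minus strand). It was at 48.4, 55.1, 34.4 and 47.8 CPM in CTRL and at 57.1, 66.6, 132 and 83.1 CPM in Isl1_hypo replicates 1 to 4. The groups did not overlap, but the gap was narrow, from 55.1 CPM in CTRL replicate 2 to 57.1 CPM in Isl1_hypo replicate 1, and replicate 3 was the highest. The mean was 46.4 ± 8.67 CPM in CTRL and 84.6 ± 33.1 CPM in Isl1_hypo (SD, n = 4), which is 182% of CTRL. Its log2 fold change was 0.87 (SE 0.24, 95% interval 0.34 to 1.39, adjusted p = 0.201 in edgeR, 0.0213 in DESeq2). Without Isl1_hypo replicate 3 it was 0.57, with an unadjusted p of 0.006.

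The transcripts of Myl1 and the markers of skeletal muscle were examined beside it. Its 2 RefSeq transcripts, of 808 and 985 bases, each had a count. The longer one held 69.1% to 79.2% of the counts of the shorter one in CTRL and 70.2% to 73.8% in Isl1_hypo. A read in a shared exon can enter both counts, so these percentages are not a ratio of isoforms. Of the 7 markers of skeletal muscle precursors (Myf5, Myod1, Myog, Pax7, Chrna1, Chrnd and Chrng), 1 was high enough to be tested, and together they came to 2.18 to 4.84 CPM in CTRL and 1.49 to 4.15 CPM in Isl1_hypo. Myod1 and Pax7 had at most 1 count in any library. The fast skeletal regulatory chain Mylpf was at 47.8, 68.2, 63.5 and 75.6 CPM in CTRL and at 62.6, 62.1, 91.3 and 89.2 CPM in Isl1_hypo, with overlapping groups and a log2 fold change of 0.26 (adjusted p = 0.579, edgeR). The heavy chains Myh1, Myh2, Myh4, Myh8, Myh13 and Myh15 of other striated muscles had at most 34 counts in any library, and of these only Myh2 and Myh13 could be tested. Of the 7 other sarcomeric myosins, 0 passed an unadjusted p of 0.05.

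Divided by transcript length, the levels fell into clear steps. In CTRL the regulatory chains came first, Myl2 at 10344 ± 1582 and Myl7 at 10236 ± 1340 CPM per kb (SD, n = 4), and their ranges overlapped. Next came Myl4 at 4741 ± 584 and Myl3 at 4560 ± 553 CPM per kb, which overlapped too. Below them stood Myh7 at 721 ± 95.2, Mybpc3 at 447 ± 30.3 and Myh6 at 233 ± 20.9 CPM per kb, with no overlap between neighbours. Myl1 followed at 57.4 ± 10.7 CPM per kb, and Myh7b (0.751) and Myh3 (0.635) closed the order, overlapping. In Isl1_hypo the pairs at the top changed places within their overlap, the ranges of Myh7 (513 ± 61.7) and Mybpc3 (410 ± 85) came to overlap, although Myh7 was above Mybpc3 in 4 of 4 libraries, and those of Myh6 (187 ± 34.8) and Myl1 (105 ± 41) overlapped as well.

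**Figure D3:**
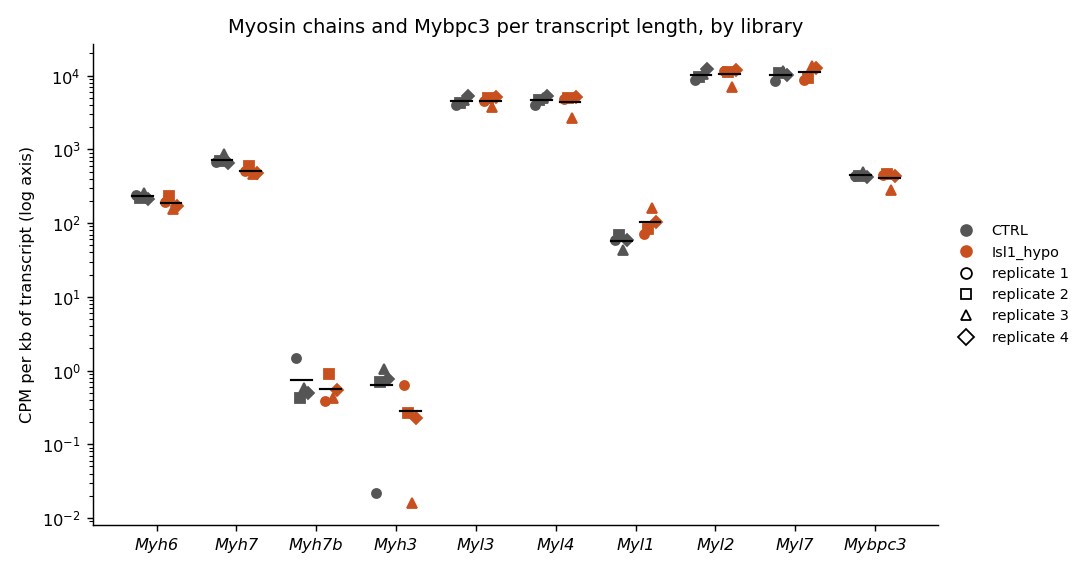
CPM per kb of transcript on a log axis for the 10 genes, with grey points for the 4 CTRL and orange points for the 4 Isl1_hypo libraries, shapes for the replicates and short lines for the group means. The regulatory chains stand near 10344 and 10236 CPM per kb in CTRL and Myh7b and Myh3 below 1.5, with 1 library of each group almost at the floor for Myh3.

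Summed by class, the groups stood apart in the heavy chains and overlapped in the light chains. The heavy chain sum was nearly all Myh7 and Myh6 (721 and 233 of a mean of 955 CPM per kb in CTRL). Of the 4 heavy chains, only Myh7 separated the groups by itself. The 4 heavy chains together were at 910, 916, 1121 and 872 CPM per kb in CTRL and at 699, 836, 617 and 651 CPM per kb in Isl1_hypo, so the groups did not overlap. The 3 essential chains were at 8002 to 10605 CPM per kb in CTRL and 6649 to 10321 in Isl1_hypo, and the 2 regulatory chains at 17213 to 22510 and 20228 to 24518, both with overlap. Regulatory chain transcripts per heavy chain transcript came to 21.7 ± 3.09 in CTRL and 31.1 ± 5.75 in Isl1_hypo (SD, n = 4), and essential chain transcripts to 9.89 ± 1.6 and 13.1 ± 2.19, with overlap in both ratios. Heavy chain transcripts per Mybpc3 transcript were at 2.07 to 2.29 in CTRL and at 1.57, 1.78, 2.17 and 1.47 in Isl1_hypo replicates 1 to 4. The ratios of light to heavy chains compare transcripts of very unequal length, about 6 kb against under 1 kb. Among all tested genes of 5 to 7 kb, the median log2 fold change was −0.06 and 57.9% were lower in Isl1_hypo, and among those under 1 kb the median was 0.05 and 41.1% were lower. A log2 fold change at or below that of Myh7 was found in 12.2% of the 1534 tested genes of 5 to 7 kb.

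**Figure D4:**
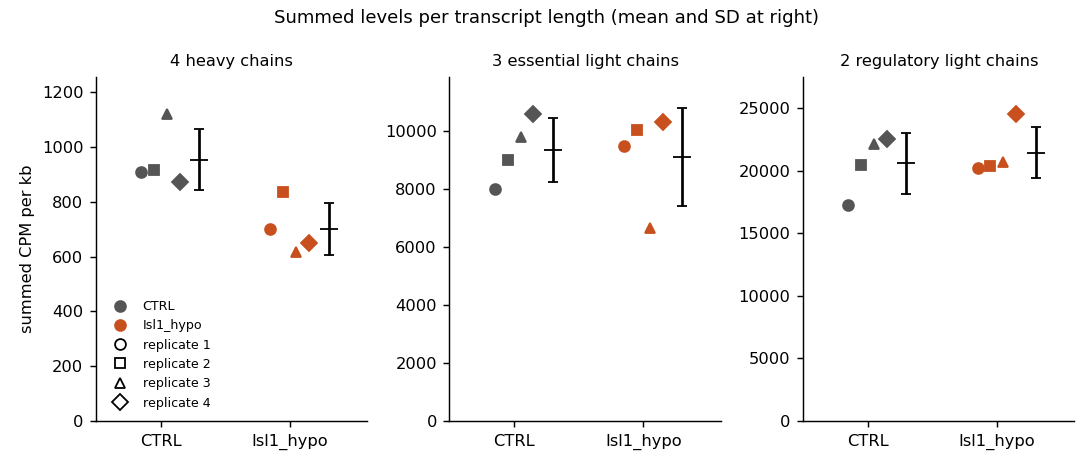
Summed CPM per kb (vertical axes from 0) of the 4 heavy chains, the 3 essential and the 2 regulatory light chains, by library, with the group mean and SD at the right of each group. The heavy chain sums of Isl1_hypo (617 to 836) lie below those of CTRL (872 to 1121), and the light chain sums overlap. Myh7 and Myh6 make up nearly all of the heavy chain sums.

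Shares within a library need no scaling between libraries, and they asked whether one isoform took the place of another. Myh6 made up 26.5%, 23.7%, 23.1% and 24.6% of Myh6 and Myh7 in CTRL replicates 1 to 4 and 27.7%, 27.9%, 24.8% and 26% in Isl1_hypo replicates 1 to 4. The groups overlapped. The mean share was 24.5 ± 1.5% in CTRL and 26.6 ± 1.47% in Isl1_hypo (SD, n = 4), 2.13 percentage points higher, and an exact two-sided permutation test gave p = 0.114 (0.343 adjusted over the 3 shares). The smallest p such a test can give with 4 against 4 is 0.0286. With 1 library left out the difference ran from 1.66 to 2.81 percentage points. It was highest without CTRL replicate 1, where the permutation p of 0.0571 was the smallest possible for 3 against 4. Myh7 was the more abundant of the pair in all 8 libraries.

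The regulatory pair was near an even split. Myl7 made up 49.1%, 53%, 52.3% and 44.7% of Myl7 and Myl2 in CTRL and 43.5%, 45.5%, 65.8% and 51.4% in Isl1_hypo. Isl1_hypo replicate 3 was the highest of the 8, and replicate 1 the lowest. The mean share was 49.8 ± 3.78% against 51.6 ± 10.1% (SD, n = 4, exact permutation p = 0.857). Without replicate 3 the difference changed from 1.76 to −2.99 percentage points. 

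The essential pair split evenly too. Myl4 made up 49.7%, 52.3%, 51.8% and 50.1% of Myl4 and Myl3 in CTRL and 51.9%, 50.6%, 41.3% and 49.8% in Isl1_hypo. Only replicate 3 of Isl1_hypo lay below the CTRL range. The mean share was 51 ± 1.28% against 48.4 ± 4.8% (SD, n = 4, exact permutation p = 0.486), and without replicate 3 the difference shrank from −2.54 to −0.18 percentage points. In this library the atrial regulatory chain had a higher share and the atrial essential chain a lower one. The 95% Wilson interval of any of the shares of the 3 pairs in a library, taken from the counts, was at most 0.631 percentage points wide.

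**Figure D5:**
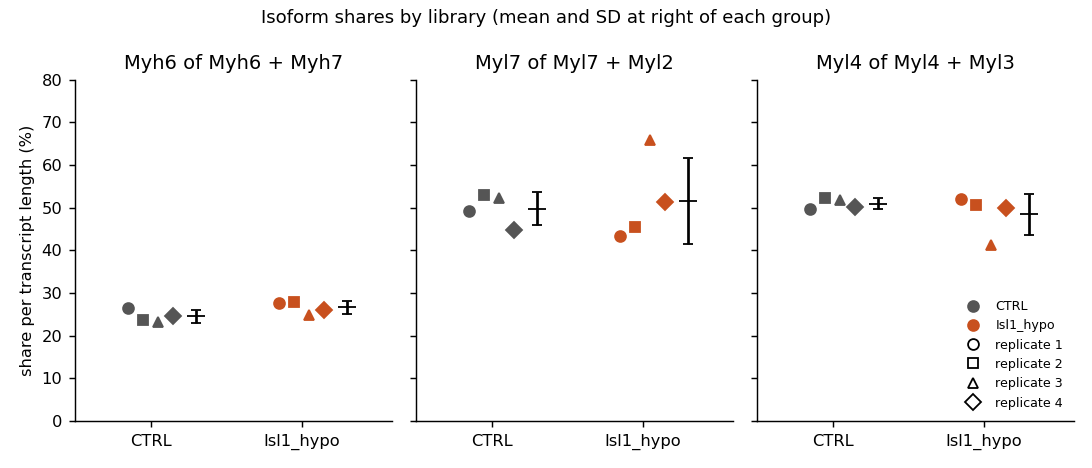
Share of the first named gene in each pair, in percent after division by transcript length, by library: grey points are CTRL, orange points Isl1_hypo, and bars at the right give mean and SD. The Myh6 share stays between 23.1% and 27.9%, and Isl1_hypo replicate 3 (triangle) stands out at 65.8% for Myl7 and 41.3% for Myl4.

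The chamber context was read from genes outside the set. Of 6 atrial markers, 4 were higher and 1 lower at an unadjusted p under 0.05, the median log2 fold change was 0.77, and their summed level was 346 to 506 CPM in CTRL and 654 to 962 CPM in Isl1_hypo. Nppa, the atrial natriuretic peptide gene that embryonic ventricles also express, rose (log2 fold change 1.13, adjusted p = 0.0303, edgeR), and Sln, sarcolipin of the atrium, fell (−2.28, adjusted p = 0.0172). Nppa dominated the sum. Of 8 chamber regulators, Nr2f2, which specifies atrial identity, was higher (0.97, adjusted p = 0.173, edgeR) and Hand1 lower (−1.04, adjusted p = 0.277). Neither passed the adjusted threshold. Nr2f2 was also among the 4 atrial markers counted as higher, and without Isl1_hypo replicate 3 its log2 fold change was 0.72. The ventricular genes Irx4 and Hey2 had log2 fold changes of 0.05 and 0.06. The part of the atrial markers in the light chain shares was not tested.

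Among the myosins of other cell types, Myh10 passed the adjusted threshold. Of 9 non-muscle and smooth muscle myosins, 4 were lower and 0 higher at an unadjusted p under 0.05, and 5 were lower without Isl1_hypo replicate 3, with Myl6 added. The non-muscle heavy chain Myh10, present in cardiomyocytes and their neighbours, was at 394, 426, 449 and 367 CPM in CTRL and at 292, 291, 239.7 and 249 CPM in Isl1_hypo, without overlap, and fell by 0.61 on the log2 scale (adjusted p = 0.0488, edgeR). Its relative Myh9 was at 66.2 to 74.8 CPM in CTRL and 34.1 to 57.5 CPM in Isl1_hypo (log2 fold change −0.70, adjusted p = 0.129). Their transcripts have 7740 (Myh10) and 7392 bases (Myh9), and the length trend of the libraries was not removed for these values. The smooth muscle heavy chain Myh11 had at most 64 counts in any library, and the light chain Myl9 had a log2 fold change of −0.27 (adjusted p = 0.343), while Myl6, Myl12a and Myl12b lay between −0.20 and 0.04.

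None of the 7 partners of the thick filament tested here (of 9) passed the adjusted threshold. At an unadjusted p under 0.05, 2 were lower and 1 was higher, and the median log2 fold change was −0.36 (−0.13 without Isl1_hypo replicate 3, when 8 were tested). Titin, the ruler of the sarcomere, was at 2651, 2341, 3294 and 4904 CPM in CTRL and 1282, 2282, 1657 and 1855 CPM in Isl1_hypo, without overlap (log2 fold change of Ttn −0.90, adjusted p = 0.173, edgeR). The Ttn transcript has 101359 bases, and the length trend of the libraries was not removed for this value. Mybpc1, the slow skeletal relative of Mybpc3, was at 54.5 to 95 CPM in CTRL and 22.7 to 43.9 CPM in Isl1_hypo (−1.15, adjusted p = 0.0577). Mybphl, a binding protein of the atrium and conduction system, was higher (0.39, adjusted p = 0.296) with no overlap between 53.3 to 63.6 and 64 to 94.7 CPM. The M-band gene Myom1 had a log2 fold change of −0.20 and did not pass.

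The genes that fold, assemble and tune myosin came next. Of 9 genes of myosin folding and assembly, including the chaperone Unc45b (log2 fold change −0.22) and the methyltransferase Smyd1 (−0.31), 0 were lower and 1 was higher at an unadjusted p under 0.05, the ubiquitin ligase Trim54 (0.49, adjusted p = 0.308, edgeR). Smyd1 was at 1680 to 1881 CPM in CTRL and at 1150.1, 1050.5, 2336 and 1147 CPM in Isl1_hypo replicates 1 to 4, where replicate 3 stood above all CTRL libraries and the other 3 below them. Without replicate 3, chosen after seeing the data, Smyd1 had a log2 fold change of −0.66 and an adjusted p of 0.00959 (edgeR), so its call turned on this library. Of the 6 tested kinases and phosphatase subunits of the light chains, 0 passed an unadjusted p of 0.05. Mylk3, the cardiac light chain kinase, was at 202 to 247 CPM in CTRL and 258 to 303 CPM in Isl1_hypo, without overlap (0.22, adjusted p = 0.449).

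Summed markers of blood, epithelium and endothelium separated the groups, and those of mesenchyme, smooth muscle and neural cells overlapped. All 6 blood markers were higher in Isl1_hypo at an unadjusted p under 0.05, summing to 1900 to 11160 CPM in CTRL and 11172 to 23201 CPM in Isl1_hypo, with Epb42 past the adjusted threshold (0.0172, edgeR). A fit with the blood level as a covariate was added after seeing the data. It gave −0.37 (SE 0.2255) for Myh7, −0.06 (SE 0.2344) for Myh6 and 0.59 (SE 0.4908) for Myl1. In this fit 0 of the 10 genes had an unadjusted p under 0.05. Because the blood sums separated the groups, the fit cannot tell blood level from genotype. Its SEs were larger than those without the covariate. Endothelial markers summed to 543 to 627 against 412 to 534 CPM, with 2 of 5 lower at the same unadjusted level. Of 3 tested epithelial markers (of 6), 3 were higher at that level, and Cldn6, Cdh1 and Esrp1 were nearly confined to Isl1_hypo replicate 1 (38.5, 15.3 and 6.03 CPM, against at most 0.311 CPM elsewhere). Of 5 mesenchymal markers 2 were lower at that level, and of 4 smooth muscle markers 1 was (Myh11, counted among the myosins too). The single neural marker tested, of 4, did not pass. With Isl1_hypo replicates 1 and 3 both left out, also chosen after seeing the data, Myh7 was at −0.41 and Myl1 at 0.69, each with an unadjusted p under 0.05.

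Patterns across the 8 libraries were compared for the 7 genes at 100 CPM or more, by the root mean square difference of centred log2 CPM to other tested genes of at least 5 CPM. The nearest to Myh7 were Pla2g12a (0.0814), Fry (0.104) and Hlcs (0.104), and to Myh6 the cell adhesion gene Cdh2 (0.071), Nhsl1 (0.0809) and Zfp446 (0.0835). Mybpc3 had the closest neighbours of all, Wdr46 (0.0342), Pelp1 (0.0429) and Zdhhc7 (0.0557). For Myl2 they were Slc35c2, Rpl19 and Rpl6, for Myl3 Hmga1, Eif3h and Akr7a5, and for Myl4 Sertad2, 4930453N24Rik and Tcf25. Myl7 was nearest to Mrps12, the troponin gene Tnni1 and Ppp2cb (0.0583 to 0.0708), so a sarcomere gene appeared once in these 21 places. The points share libraries and depth, and the distances are a description.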

How the data were processed

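Polyadenylated RNA of single OFT/RV samples was sequenced by the authors on BGISEQ-500 from 100 ng of total RNA. Per the labels and the methods of the study, reads were aligned to mm9 with STAR and HOMER counted exon reads of both strands for each RefSeq transcript. Versions are not given in the sources used here. The deposited counts are whole numbers and not normalized. RPKM values, which the authors computed with edgeR, were not used. The transcript lengths are those in the deposited table. Columns of the authors' DESeq2 comparison (mean, log2 fold change, standard error, statistic and p-values) were not used. Without strand, reads of overlapping genes add together.

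One transcript per symbol was kept. Genes were filtered with filterByExpr, scaled by TMM and tested in edgeR (4.0.16, R 4.3.3) by quasi-likelihood, without covariates, with adjustment over 13769 genes. CPM use TMM-scaled totals, and log2 CPM a prior count of 2. Shares were tested by exact permutation over 70 assignments (scipy 1.17.1). Alternatives used DESeq2 (1.42.0) and limma (3.58.1), other scalings, filters, trends (loess span 0.5, GC content known for 91.4% of genes) and left-out libraries. The test was first run on simulated data. One gene of the lists is not reported here and was left out of the list counts. The genes, gene lists and rules were chosen with earlier results of these data known. Named genes are the 10 genes, Isl1, list genes with an unadjusted p under 0.05 or at least 50 CPM, marker genes of other cells, and the 3 nearest by pattern, among genes with an SD of at least 0.75 times that of the gene compared. Low list genes given only as a count limit were named after their values were seen. Each library is 1 embryo, and Wilson intervals cover counting error only.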

Additional observations from a re-analysis of the deposited data

Results flagged for a closer look

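Of 28 groups of 4 libraries examined (Isl1, the 10 genes and the 3 shares in each group), 4 held a library far from the other 3, where chance gives about 1.4. CTRL replicate 1 was at −2.41 log2 CPM for Myh3, against 2.08 to 2.64 in the other CTRL libraries. Isl1_hypo replicate 3 accounted for the rest. It was at 12.1 log2 CPM for Myl2 against 12.8 to 12.9 in the other Isl1_hypo libraries, at 11.2 against 12.06 to 12.12 for Myl4, and at 10.2 against 10.8 to 10.9 for Mybpc3. The same library stood apart on the first principal component and in its GC trend. Their part in these levels was not tested.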

How the results depend on the processing

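Of 332 comparisons of a result with an alternative, 285 were scored the same. For a fold change or share this meant the same direction and side of the threshold, and for a count a value of similar size. For fold changes the threshold was the adjusted p, which 0 of the 10 genes passed in the main fit. Myh6 thus scored the same in 21 of 21 alternatives, although its unadjusted p was under 0.05 in 10 of them. The number of genes with an adjusted p under 0.05 was 37 in edgeR, 24 with scaling to the myocardium markers (which moved the median of all genes to 0.0589), 319 with DESeq2, 134 with limma-voom and quality weights, and 0 with the blood level as a covariate. It was 4 to 48 when 1 library was left out, lowest without CTRL replicate 3 and highest without Isl1_hypo replicate 3, and 31 without Isl1_hypo replicates 1 and 3. Of the 10 genes, 0 passed the adjusted threshold except in DESeq2 (2). Of the same genes, 2 to 3 had an unadjusted p under 0.05 except with the blood covariate (0). With that covariate, which cannot be told from genotype here, Isl1 had a log2 fold change of −2.53 (adjusted p = 0.862, edgeR). The causes were not tested. With the replicate block the count of genes was 0, Isl1 had an adjusted p of 0.0722, and 3 of the 10 genes kept an unadjusted p under 0.05. Equal replicate numbers did not mark paired libraries, as same-number correlations were −0.021 to 0.022, and the paired sign-flip test of the Myh6 share gave an exact p of 0.125, the smallest it can give.

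Changes of sign were confined to genes and shares whose values lay near 0 or at low counts. For Myl2 the log2 fold change was −0.0082 with upper quartile scaling, −0.0031 with no filter, −0.012 with the block, −0.0487 with the length trend removed and −0.13 with the blood covariate (−0.0715 to 0.15 with 1 library left out). For Myl3 it was −0.0021 with upper quartile scaling, −0.0462 with the length trend removed and −0.12 with the blood covariate (−0.0506 to 0.0923). For Myl4 it was 0.0091 with limma-voom and 0.0967 without Isl1_hypo replicates 1 and 3 (−0.18 to 0.0794). For Myl7 it was −0.073 with limma-voom and −0.17 with the blood covariate (−0.0022 to 0.21). For Mybpc3 it was 0.0282 without Isl1_hypo replicates 1 and 3 and 0.16 with the blood covariate (−0.201 to 0.016). For Myh7b it was 0.0779 with limma-voom and 0.89 with the blood covariate (−0.74 to 0.15). The Myl7 share differed by −2.99 to 4.46 percentage points with 1 library left out and by −1.32 without Isl1_hypo replicates 1 and 3, which with the blood covariate were chosen after seeing the data. With 3 against 4 libraries the smallest exact p is 0.0571. Myh3 had 3 or 4 counts in 1 library of each group, neither of them the shallowest of the 8, and the cause was not tested.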
